A study of Mus musculus with 12 samples.

Results

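The genes described here encode carriers of glucose and of amino acids in the cell membrane. They were chosen by name and are Slc2a1, Slc2a3, Slc1a4, Slc1a5, Slc3a2, Slc7a1, Slc7a5, Slc7a6, Slc38a1 and Slc38a2. All spots other than controls whose gene name matched 1 of these 10 genes were taken, which gave 15 of the 61307 probes on the array (5 genes with 1 probe and 5 with 2). Each gene is described by its brightest probe, and the other probe is given where it differs. Slc2a1, Slc2a3, Slc1a5, Slc7a1 and Slc7a5 have only 1 probe, so that their results rest on that probe alone. The brightest probes of 9 of the 10 genes were bright enough to be tested, among 31599 probes tested in all.

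RNA was taken from resting B (RB) cells of the spleens of female BALB/c mice that were 6 weeks old by the labels, isolated by removal of CD43-positive cells. The cells had been cultured for 4 h in medium alone (unstimulated), with Pam2CSK4, a synthetic lipopeptide ligand of the Toll-like receptor TLR-2, with an antibody to the costimulatory molecule CD86 (anti-CD86), or with an antibody to CD40 (anti-CD40). In the TLR2.CD86 group the cells received Pam2CSK4 and anti-CD86, and in the TLR2.CD40 group they received Pam2CSK4 and anti-CD40. There were 2 arrays in each of the 6 groups, 12 in all. No group was treated with an isotype control antibody in the arrays used here. The labels do not say whether both samples of a group came from separate animals or cultures, so a p-value measures only the spread between these samples, which may be technical.

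A signal below is a log2 background-corrected intensity from which that of the 75th percentile of the same array was subtracted, so that 0 marks a probe at that percentile and a signal has no unit. Signals of different probes cannot be compared with each other. A gene was called higher or lower where the adjusted p of limma (Benjamini-Hochberg over all 31599 probes) was under 0.05. The arrays came from 2 slides. On slide 1 were 8 arrays, including both of the unstimulated and both of the TLR2.CD40 group, and on slide 2 was sample 2 of the other 4 groups. Fits of slide 1 alone therefore hold 1 array of each of those 4 groups. Their p-values measure no spread within these groups. With the slide as a term in the fit, 18138 probes differed between the slides, and the brightest probes of 6 of the members, Slc2a3, Slc1a5, Slc3a2, Slc7a6, Slc38a1 and Slc38a2, differed by -0.44 to -0.19 on the log2 scale (slide 2 minus slide 1). Those of Slc2a1, Slc7a1 and Slc7a5 did not pass the test for the slide (adjusted p = 0.113, 0.362 and 0.548). The fit with the slide is therefore given beside the results of the carrier genes that it changes, and by counts for the gene lists.

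The B cell markers Cd79a, Cd79b, Ms4a1, Pax5, Cd22 and Blk were well above background on all arrays. Their summed linear level was 295.5 to 325.7 on the unstimulated arrays, 378.4 to 430.7 in TLR2.CD40 and 273.5 to 361.3 in the other groups. That of 4 red cell markers was 85.9 to 86.2, 103.8 to 104.7 and 59.2 to 107.3. Markers of T cells, NK cells, myeloid cells and plasma cells were detected too. The summed linear level of 4 NK cell markers was 14.82 to 14.97 on the unstimulated arrays and 8.14 to 12.7 on the stimulated arrays. That of 6 myeloid markers was 20.4 to 20.5 on the unstimulated arrays and 12.5 to 22.6 on the others. That of 7 T cell markers was 33.9 to 34.6 against 22.5 to 32.1, and that of 3 plasma cell markers was 5.59 to 5.68 against 2.72 to 5.59. The part of these markers in the results below was not tested, and in these bulk samples fewer cells of a type and less RNA per cell cannot be told apart.

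Resting lymphocytes take up little glucose and few amino acids, and carriers of both are known to increase when lymphocytes prepare to grow and divide. The glucose carriers of the SLC2 family move hexoses down their gradient. Some amino acid carriers are driven by sodium, as in the SLC38 family, and others exchange an amino acid inside the cell for one outside. Slc7a5 and Slc7a6 encode light chains of such exchangers and reach the membrane only when they are bound to the heavy chain CD98, the product of Slc3a2.

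The carrier genes did not move as a group. The cationic amino acid carrier gene Slc7a1 was higher with both combinations, by 1.97-fold in TLR2.CD86 and 5.49-fold in TLR2.CD40, and lower with anti-CD86 or anti-CD40 alone. The amino acid exchanger genes Slc7a5 and Slc7a6 were higher with anti-CD40, by 1.48-fold and 1.86-fold. The glucose carrier gene Slc2a1 was lower by 1.33-fold to 1.44-fold in 3 of the 5 stimulated groups.

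Of the 9 genes tested, none was called with Pam2CSK4 against unstimulated cells by limma, where 0.133% of all probes were called. At an unadjusted p under 0.05 there were 3 (Slc2a1, Slc7a1 and Slc38a1), and the fit without moderation called none. The share of all probes at an unadjusted p under 0.05 is not given here or below. Counts at that threshold are therefore no results about the genes. With anti-CD86, 1 gene was called (Slc7a1, lower), beside 2.07% of all probes. With TLR2.CD86, 3 genes were called (1 higher and 2 lower), beside 10.7% of all probes. With anti-CD40, 4 genes were called (2 higher and 2 lower), beside 16.8% of all probes. With TLR2.CD40, 4 genes were called (3 higher and 1 lower), beside 18.1% of all probes. With the slide in the fit, 2, 5, 5, 7 and 6 of the 9 genes were called in the same 5 comparisons, beside 10.9%, 28.5%, 35.1%, 37.4% and 47.5% of all probes. The median log2 fold change of the 9 genes lay between -0.28 (anti-CD40) and 0.02 (TLR2.CD40), and that of all probes between -0.07 and 0.01.

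**Figure D1:**
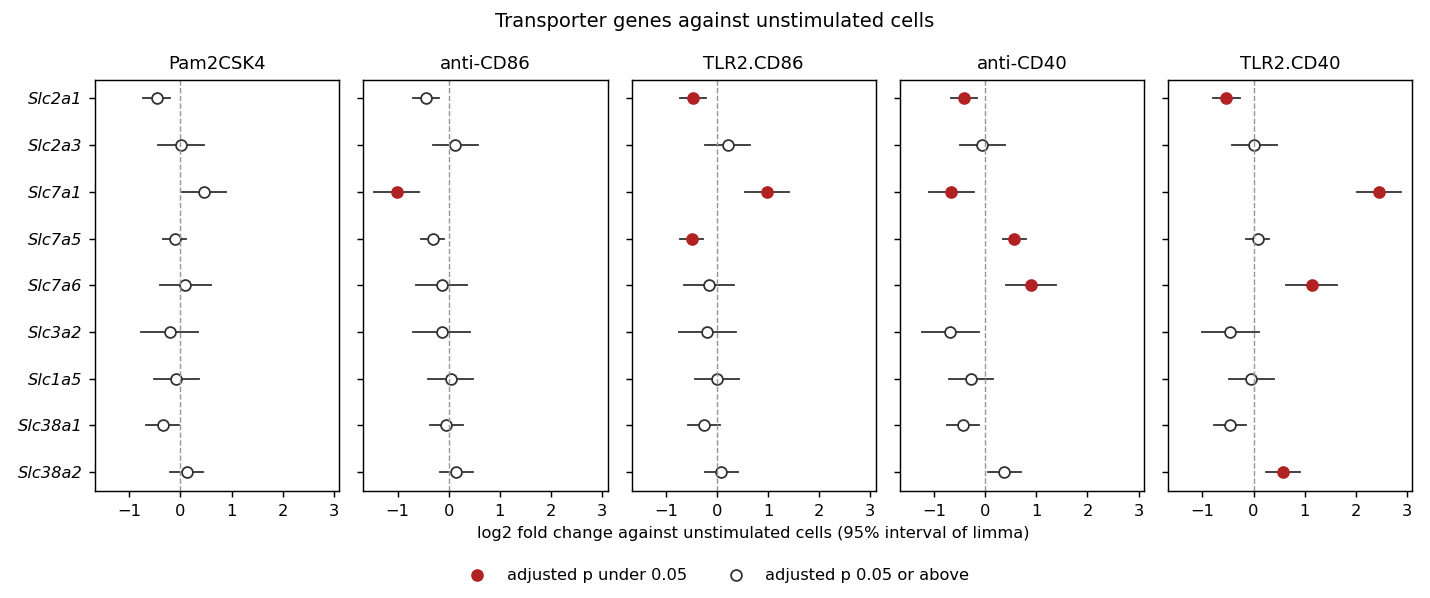
Log2 fold change of 9 carrier genes (rows) in 5 stimulated groups (panels) against unstimulated cells, 2 arrays in each group, with the 95% interval of limma as a line and filled points for genes called at an adjusted p under 0.05. Slc7a1 lay at -1.02 with anti-CD86 and at 2.46 in TLR2.CD40, whereas the points of Slc2a1 lay between -0.53 and -0.41 in every panel.

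When the arrays were scaled to their median in place of the 75th percentile, the median of all probes itself moved by -0.26 (Pam2CSK4), -0.19 (anti-CD86), -0.32 (TLR2.CD86), -0.58 (anti-CD40) and -0.10 (TLR2.CD40) on the log2 scale against unstimulated cells. Each scaling subtracts 1 constant per array, so that fold changes relative to that median are the same under both by construction. This sameness is no sign of agreement between the scalings. Slc7a5 with anti-CD40 stood 0.59 above the median of all probes. Its own value was 0.57 with the 75th percentile and 0.00 with the median, where it was not called (adjusted p = 0.998). No call turned its sign under any alternative, but with the median only Slc7a1 in TLR2.CD40 was called among the comparisons with unstimulated cells (log2 fold change 2.35, adjusted p = 0.000815).

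Slc7a1 encodes CAT-1, the carrier that brings arginine, lysine and ornithine into most cells. Its signal was -1.99 and -1.96 on the unstimulated arrays and -1.44 and -1.60 with Pam2CSK4. It was -3.11 and -2.88 with anti-CD86 and -2.93 and -2.35 with anti-CD40. It was -0.96 and -1.04 in TLR2.CD86 and 0.39 and 0.57 in TLR2.CD40. Thus both arrays of each single antibody lay below both unstimulated arrays, those of Pam2CSK4 and both combinations lay above them, and TLR2.CD40 stood above all other arrays. The probe was well above background on all 12 arrays. It was dim with the single antibodies, since the lowest signal well above background averaged -3.79 on the unstimulated arrays. The fold changes of the single antibodies, those of the combinations against them, and the interactions rest in part on these dim signals.

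Against unstimulated cells Slc7a1 was 5.49-fold higher in TLR2.CD40 (log2 fold change 2.46 ± 0.19 SE, adjusted p = 0.000228) and 1.97-fold higher in TLR2.CD86 (0.98 ± 0.19, adjusted p = 0.0232). It was 2.03-fold lower with anti-CD86 (-1.02 ± 0.19, adjusted p = 0.0445) and 1.59-fold lower with anti-CD40 (-0.66 ± 0.19, adjusted p = 0.0483). With Pam2CSK4 alone the log2 fold change was 0.46 ± 0.19 and did not pass (adjusted p = 0.305). Over 21 alternative settings the log2 fold change ran from 1.695 to 2.547 in TLR2.CD40 and from 0.607 to 1.017 in TLR2.CD86. The call in TLR2.CD40 was kept in each of the 12 fits that left out 1 array. The call in TLR2.CD86 was lost without either unstimulated array or either TLR2.CD86 array (adjusted p up to 0.143). That with anti-CD86 was kept only without anti-CD40 replicate 1 or 2, and that with anti-CD40 only without anti-CD40 replicate 2, with adjusted p up to 0.266 and 0.199 without the other arrays. On slide 1 alone, with 1 array of each single antibody, the log2 fold changes were -1.13 for anti-CD86 and -0.95 for anti-CD40.

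**Figure D2:**
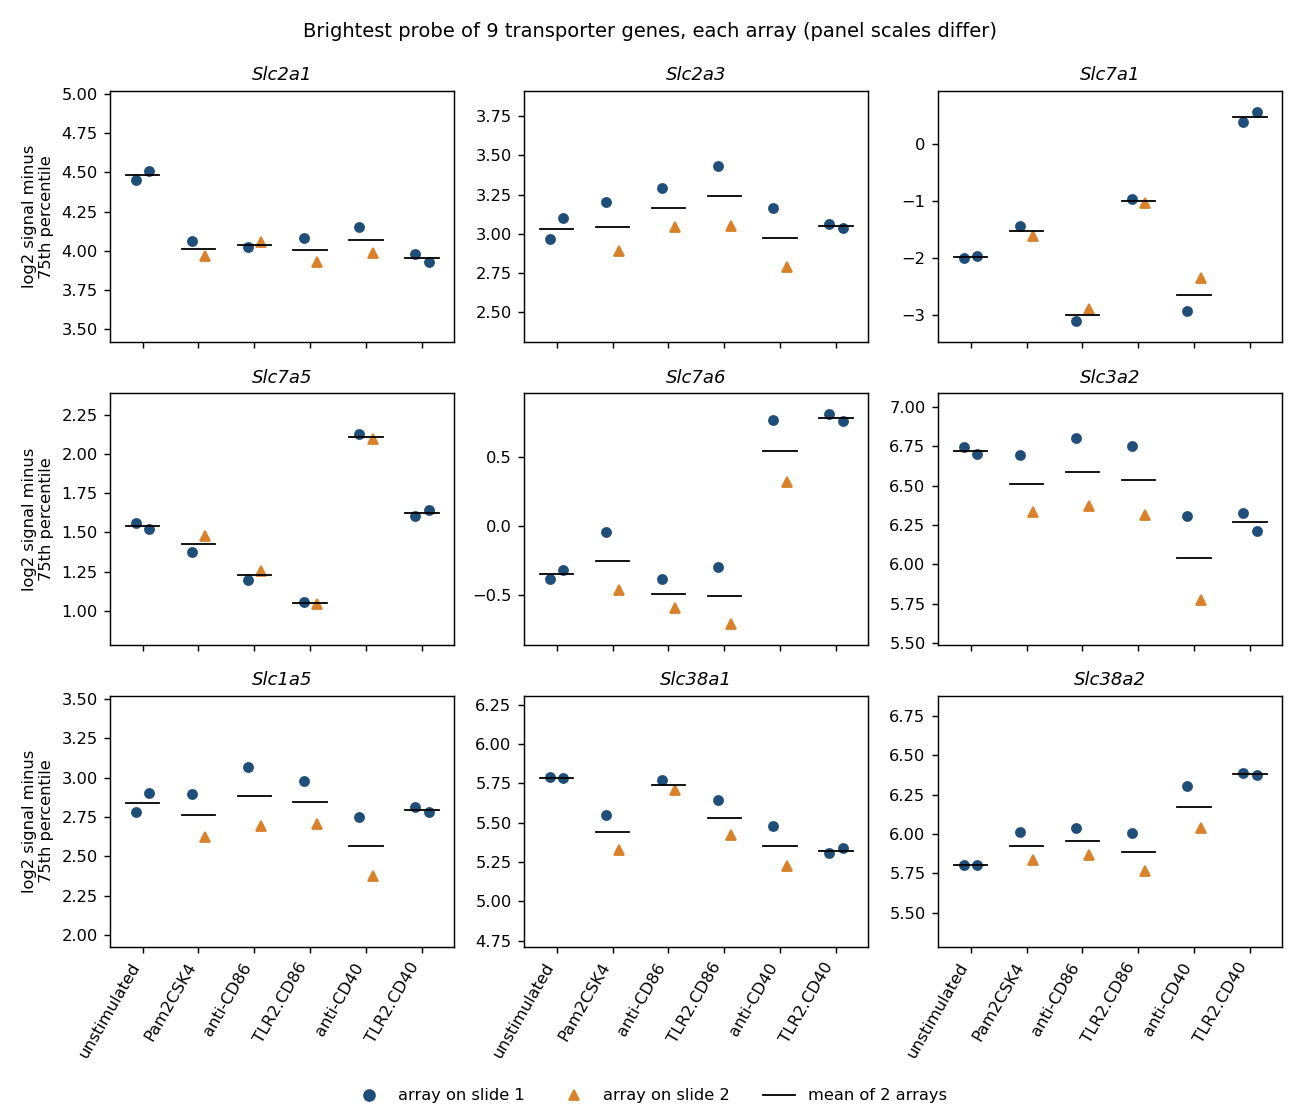
Signal of the brightest probe of 9 carrier genes (log2 intensity relative to the 75th percentile) on each of the 12 arrays, by group, with circles for slide 1, triangles for slide 2 and a line at the mean of both arrays; the panels have their own scales. Slc7a1 rose from -1.99 and -1.96 on the unstimulated arrays to 0.39 and 0.57 in TLR2.CD40, and for Slc3a2 and Slc1a5 the triangle lay below the circle in each group that was split between the slides.

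The next comparisons set each combination against its single signals. TLR2.CD86 was 3.99-fold higher than anti-CD86 alone (log2 fold change 2.00 ± 0.19, adjusted p = 0.00839), where it was the only member called and 0.225% of all probes were. This call was lost without TLR2.CD86 replicate 1 or 2 or anti-CD86 replicate 1 (adjusted p up to 0.0822) and on slide 1 alone (2.15, adjusted p = 0.117). Against Pam2CSK4 alone the difference was 0.52 ± 0.19 (adjusted p = 0.397), and none of the 9 genes was called by limma in that comparison, where 0.0633% of all probes were. There were 2 with an unadjusted p under 0.05, Slc7a1 and Slc7a5, with the share of all probes at that threshold not given. Slc7a5 was called with the slide in the fit (-0.38, adjusted p = 0.0150, beside 11.1% of all probes) and without moderation.

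TLR2.CD40 was 8.70-fold higher than anti-CD40 alone for Slc7a1 (log2 fold change 3.12 ± 0.19, adjusted p = 9.86e-05) and 3.99-fold higher than Pam2CSK4 alone (2.00 ± 0.19, adjusted p = 0.00111). The first comparison called 2 of the 9 genes (Slc7a1 higher and Slc7a5 lower) beside 2.89% of all probes, and the second 2 genes (Slc7a1 and Slc7a6, both higher) beside 9.81%. In both, the call of Slc7a1 was kept under each of 21 alternatives. Its size varied over them, from 2.005 to 3.578 against anti-CD40 and from 1.447 to 2.089 against Pam2CSK4 on the log2 scale. Between the combinations, Slc7a1 was 2.79-fold higher in TLR2.CD40 than in TLR2.CD86 (1.48 ± 0.19, adjusted p = 0.00337), and 3 of the 9 genes were called (Slc7a1, Slc7a5 and Slc7a6, all higher in TLR2.CD40) beside 12.2% of all probes. The fit with the slide called 6 of the 9 genes in TLR2.CD40 against Pam2CSK4, beside 31.6% of all probes, and 8 between the combinations, beside 34.6%. Of the 6, 4 were higher in TLR2.CD40 and 2 lower (Slc3a2 and Slc38a1). Of the 8, 4 were higher and 4 lower (Slc3a2, Slc2a3, Slc38a1 and Slc1a5). With the median scaling the call of Slc7a1 between the combinations was lost (1.66, adjusted p = 0.0554).

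The interaction is the log2 effect of both signals minus the sum of the effects of each alone, so that 0 means that the effects add up. For CD40 and TLR-2 it was 2.66 ± 0.27 for Slc7a1 (adjusted p = 0.00399), the only member called, beside 1.15% of all probes. Over 21 alternative settings this interaction ran from 1.757 to 3.314. With the slide as a term it was 2.80 (adjusted p = 0.00437, beside 8.55% of all probes), and on slide 1 alone 2.87 but not called (adjusted p = 0.0604). For CD86 and TLR-2 it was 1.54 ± 0.27 for Slc7a1 and did not pass (adjusted p = 0.306). In that interaction limma called none of the 9 genes and 0.019% of all probes, and none of the 9 was called without moderation. At an unadjusted p under 0.05 there were 2 genes (Slc7a1 and Slc2a1), with the share of all probes at that threshold not given.

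**Figure D3:**
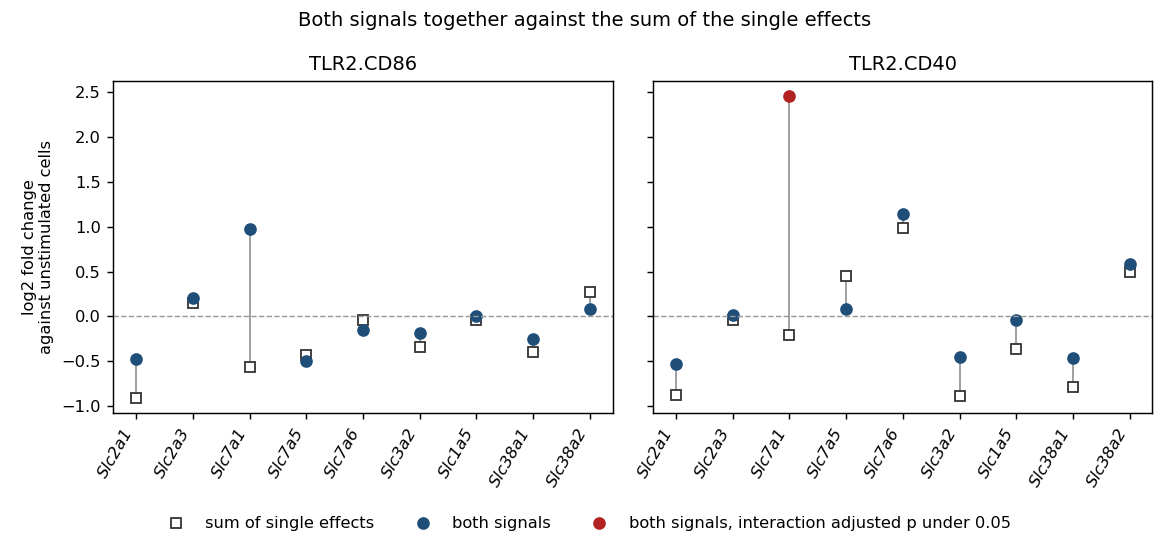
Log2 fold change against unstimulated cells (vertical axis) of 9 carrier genes in TLR2.CD86 (left) and TLR2.CD40 (right), as circles, beside the sum of the log2 fold changes of the single signals, as squares. In TLR2.CD40 the circle of Slc7a1 stood 2.66 above its square, the only gap with an adjusted p under 0.05.

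The window of 250 bases before the annotated start was looked up in RefSeq (GRCm38.p6) for the members, and 6 of the 10 genes had at least 1 window, 8 in all. They were searched on both strands for an E-box (CACGTG), an NF-kB motif (GGGA and CC with any 4 bases between), a composite of C/EBP and ATF (TGATGNAA) and an AP-1 motif (TGANTCA), which 6.02%, 17.6%, 3.45% and 6.75% of all 32851 windows hold. NF-kB and AP-1 are factors that CD40 and TLR-2 are known to activate. The windows of Slc7a1, the gene with the largest fold change, and of Slc7a6 are shown with the matches in capitals, beside that of Slc2a1, which has none. The window at the upstream one of 2 starts of Slc7a1 lay at chr5:148399905-148400154 on the minus strand, that of Slc7a6 at chr8:106168604-106168853 on the plus strand and that of Slc2a1 at chr4:119108495-119108744 on the plus strand.
Slc7a1: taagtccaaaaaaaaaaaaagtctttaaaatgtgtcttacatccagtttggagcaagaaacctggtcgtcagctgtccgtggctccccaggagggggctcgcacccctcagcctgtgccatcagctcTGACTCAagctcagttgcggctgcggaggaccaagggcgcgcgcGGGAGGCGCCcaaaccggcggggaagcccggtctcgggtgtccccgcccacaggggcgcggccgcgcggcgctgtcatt
Slc7a6: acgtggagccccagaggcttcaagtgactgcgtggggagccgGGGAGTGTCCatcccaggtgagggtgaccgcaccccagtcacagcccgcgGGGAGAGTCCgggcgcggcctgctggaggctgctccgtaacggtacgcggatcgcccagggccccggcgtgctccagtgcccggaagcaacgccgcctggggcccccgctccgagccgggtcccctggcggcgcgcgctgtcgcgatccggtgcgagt
Slc2a1: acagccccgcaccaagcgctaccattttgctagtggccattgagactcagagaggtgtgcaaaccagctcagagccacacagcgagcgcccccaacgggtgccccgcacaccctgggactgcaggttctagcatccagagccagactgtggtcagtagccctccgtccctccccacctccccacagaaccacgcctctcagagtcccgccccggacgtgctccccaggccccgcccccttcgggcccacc
The window of Slc7a1 held a match of the AP-1 motif that began 123 bases before the start and 1 of the NF-kB motif 79 bases before it, which did not overlap. The window at the second start of Slc7a1 held none of the motifs. That of Slc7a6 held NF-kB matches 208 and 158 bases before the start, and a second window of Slc7a6 that overlaps with it held the latter again. Of the other windows, that of Slc1a4 held 1 NF-kB match and those of Slc38a2 and Slc3a2 none. These are matches of letters and not measured sites.

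Slc7a5 encodes LAT1, the exchanger that brings leucine and other large neutral amino acids into activated lymphocytes. Its signal was 1.56 and 1.52 on the unstimulated arrays and 1.37 and 1.48 with Pam2CSK4. It was 1.20 and 1.26 with anti-CD86 and 1.06 and 1.04 in TLR2.CD86. It was 2.13 and 2.09 with anti-CD40 and 1.60 and 1.64 in TLR2.CD40. The anti-CD40 arrays were the highest and the TLR2.CD86 arrays the lowest, and neither overlapped with the unstimulated arrays. Slc7a5 was thus 1.48-fold higher with anti-CD40 (log2 fold change 0.57 ± 0.10, adjusted p = 0.0104) and 1.41-fold lower in TLR2.CD86 (-0.49 ± 0.10, adjusted p = 0.0243).

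In TLR2.CD40 Slc7a5 was 0.08 ± 0.10 above unstimulated cells (adjusted p = 0.637), lower than with anti-CD40 alone (-0.49 ± 0.10, adjusted p = 0.0401) and 0.57 ± 0.10 above TLR2.CD86 (adjusted p = 0.00914). The difference from anti-CD40 alone was lost in each of the 12 fits without 1 array (adjusted p 0.0604 to 0.243). The call with anti-CD40 was lost without either unstimulated array (adjusted p up to 0.0947), and that in TLR2.CD86 without any 1 of the unstimulated, TLR2.CD86 or TLR2.CD40 arrays (adjusted p up to 0.159). The difference between the combinations was lost without either TLR2.CD40 array (adjusted p up to 0.0804). With anti-CD86 the log2 fold change of -0.32 did not pass (adjusted p = 0.114) but was called with the slide in the fit (-0.33, adjusted p = 0.00915).

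Slc7a6 encodes y+LAT2, an exchanger of cationic for neutral amino acids. Its signal was -0.39 and -0.32 on the unstimulated arrays, 0.76 and 0.31 with anti-CD40 and 0.81 and 0.76 in TLR2.CD40. With Pam2CSK4 it was -0.05 and -0.47, with anti-CD86 -0.39 and -0.60, and in TLR2.CD86 -0.30 and -0.71. All 4 arrays of cells that received anti-CD40 thus lay above the other 8 arrays. Slc7a6 was 1.86-fold higher with anti-CD40 (log2 fold change 0.89 ± 0.21, adjusted p = 0.0289) and 2.20-fold higher in TLR2.CD40 (1.14 ± 0.21, adjusted p = 0.00929).

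The dimmer probe of Slc7a6 was higher in the same groups, by 0.62 ± 0.14 (adjusted p = 0.0239) and 0.48 ± 0.14 (adjusted p = 0.0485). The brighter probe was 1.04 ± 0.21 higher in TLR2.CD40 than with Pam2CSK4 (adjusted p = 0.0215), where the dimmer probe had 0.48 ± 0.14 and was not called (adjusted p = 0.0702), and 1.29 ± 0.21 higher than in TLR2.CD86 (adjusted p = 0.00839). Leaving out either unstimulated array or either TLR2.CD40 array ended the call of the brighter probe in TLR2.CD40 (adjusted p up to 0.0675). The call with anti-CD40 was ended by leaving out those arrays or anti-CD40 replicate 1 (adjusted p up to 0.148). The difference from Pam2CSK4 was lost without either TLR2.CD40 array or Pam2CSK4 replicate 2 (adjusted p up to 0.133), and that from TLR2.CD86 without either TLR2.CD40 array or TLR2.CD86 replicate 2 (adjusted p up to 0.0632).

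Slc3a2 encodes CD98, the heavy chain that both exchangers need. Its signal was 6.74 and 6.70 on the unstimulated arrays, 6.31 and 5.77 with anti-CD40 and 6.33 and 6.21 in TLR2.CD40. It was 6.69 and 6.33 with Pam2CSK4, 6.80 and 6.37 with anti-CD86, and 6.75 and 6.31 in TLR2.CD86, where the second array of each pair lay on slide 2. The arrays of cells that received anti-CD40 were thus all below the unstimulated arrays, and the slide 1 arrays of the other groups, at 6.69 to 6.80, lay beside them. With all arrays and no slide in the fit, no difference of Slc3a2 from unstimulated cells was called (-0.68 ± 0.24, adjusted p = 0.0874, for anti-CD40 and -0.45 ± 0.24, adjusted p = 0.230, for TLR2.CD40). With the slide in the fit both were called (-0.46, adjusted p = 0.00289, and -0.45, adjusted p = 0.00173). On slide 1 alone, with 1 anti-CD40 array, the log2 fold changes were -0.42 and -0.45. The replicate block called the difference with anti-CD40 too (adjusted p = 0.0138). Without anti-CD40 replicate 1 the log2 fold change with anti-CD40 was -0.95. The anti-CD40 array left there lay on slide 2 and both unstimulated arrays on slide 1, so that this value cannot be told apart from the slide.

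The dimmer probe of Slc3a2 had log2 fold changes of -0.56 with anti-CD40 (adjusted p = 0.154) and -0.57 in TLR2.CD40 (adjusted p = 0.149). In the fit with the slide these were -0.33 (adjusted p = 0.0133) and -0.57 (adjusted p = 0.000962). That fit also called this probe higher with anti-CD86 (0.52, adjusted p = 0.00463) and in TLR2.CD86 (0.40, adjusted p = 0.00799), where the brighter probe had values of 0.08 and 0.03 and was not called (adjusted p = 0.410 and 0.752).

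**Figure D4:**
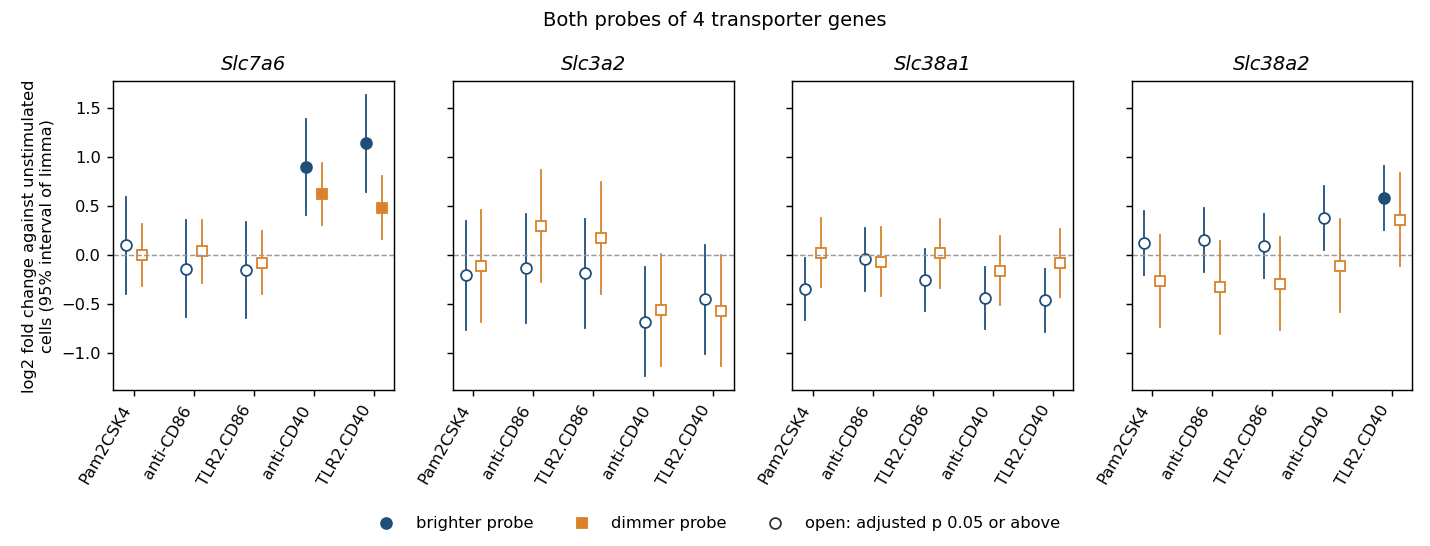
Log2 fold change against unstimulated cells (vertical axis, 95% interval of limma as a line) of both probes of Slc7a6, Slc3a2, Slc38a1 and Slc38a2 in 5 stimulated groups, with filled points at an adjusted p under 0.05 and no slide in the fit. Both probes of Slc7a6 were called with anti-CD40 and in TLR2.CD40, and for Slc38a2 the dimmer probe had a value below 0 and the brighter probe one above 0 in the groups other than TLR2.CD40.

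Slc2a1 encodes GLUT1, the main glucose carrier of lymphocytes. Its signal was 4.45 and 4.51 on the unstimulated arrays, 4.06 and 3.97 with Pam2CSK4, and 4.03 and 4.06 with anti-CD86. It was 4.08 and 3.93 in TLR2.CD86, 4.15 and 3.99 with anti-CD40, and 3.98 and 3.93 in TLR2.CD40. Every stimulated array lay below both unstimulated arrays, and the TLR2.CD40 arrays lay below both arrays of either single antibody. Slc2a1 was lower by 1.39-fold in TLR2.CD86 (log2 fold change -0.47 ± 0.11, adjusted p = 0.0367), by 1.33-fold with anti-CD40 (-0.41 ± 0.11, adjusted p = 0.0415) and by 1.44-fold in TLR2.CD40 (-0.53 ± 0.11, adjusted p = 0.0146).

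With Pam2CSK4 and with anti-CD86 the log2 fold changes of Slc2a1 were -0.47 and -0.44 and did not pass (adjusted p = 0.145 and 0.0767). With the slide in the fit all 5 differences were called, at -0.36 to -0.53 (adjusted p = 0.000929 to 0.0188). Without either unstimulated array or either TLR2.CD40 array the call in TLR2.CD40 was lost (adjusted p up to 0.110). The call in TLR2.CD86 was kept only without anti-CD40 replicate 1 or 2 (adjusted p up to 0.206 otherwise), and that with anti-CD40 only without anti-CD40 replicate 1 or TLR2.CD86 replicate 1 or 2 (adjusted p up to 0.210 otherwise). Slc2a1 was not called in any of the 5 comparisons made between stimulated groups. The interval of TLR2.CD40 against TLR2.CD86 ran from -0.31 to 0.20.

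Slc2a3 encodes GLUT3, a glucose carrier of high affinity. Its signal was 2.97 and 3.10 on the unstimulated arrays and ranged from 2.79 (anti-CD40) to 3.43 (TLR2.CD86) on the stimulated arrays, and each stimulated group overlapped with the unstimulated arrays. No difference passed (log2 fold changes -0.06 to 0.21). The fit with the slide called Slc2a3 higher with anti-CD86 (0.30, adjusted p = 0.0216) and in TLR2.CD86 (0.37, adjusted p = 0.00798).

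Slc1a4 and Slc1a5 encode ASCT1 and ASCT2, exchangers of small neutral amino acids and, for ASCT2, of glutamine. The brightest probe of Slc1a4 was well above background only on anti-CD40 replicate 1, with a signal of -2.44, whereas replicate 2 had -4.23 and the other arrays had -6.14 to -4.81. The other probe was not well above background on any array, and Slc1a4 was not tested. With 1 of 2 anti-CD40 arrays well above background, no fold is given. The signal of Slc1a5 was 2.78 and 2.90 on the unstimulated arrays and 2.37 (anti-CD40) to 3.07 (anti-CD86) on the stimulated arrays. No difference of Slc1a5 from unstimulated cells passed in either fit, and the log2 fold changes were -0.28 to 0.04 without the slide.

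Slc38a1 and Slc38a2 encode SNAT1 and SNAT2, sodium-driven carriers of glutamine and alanine, and SNAT2 is known to rise when amino acids are scarce. The signal of Slc38a2 was 5.80 on both unstimulated arrays, 6.31 and 6.04 with anti-CD40 and 6.39 and 6.37 in TLR2.CD40. It was 6.01 and 5.84 with Pam2CSK4, 6.04 and 5.87 with anti-CD86, and 6.01 and 5.77 in TLR2.CD86. Both TLR2.CD40 arrays lay above all others, and Slc38a2 was 1.49-fold higher there (log2 fold change 0.58 ± 0.14, adjusted p = 0.0259). The call was lost without either unstimulated array or either TLR2.CD40 array (adjusted p up to 0.135).

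With the slide in the fit Slc38a2 was also called with anti-CD40 (0.48, adjusted p = 0.000999) and, at 0.19 to 0.26, in the other 3 stimulated groups (adjusted p = 0.0139 to 0.0425). Its dimmer probe had log2 fold changes of 0.36 in TLR2.CD40 (adjusted p = 0.266, and 0.00609 with the slide) and -0.33 to -0.11 in the other groups (adjusted p 0.364 to 0.739). The probes of Slc38a2 therefore differed in sign in those groups, where neither was called without the slide. The dimmer probe had 0.07 with anti-CD40 in the fit with the slide (adjusted p = 0.510) and 0.10 on slide 1 alone, with the sign of the brighter probe. With Pam2CSK4, anti-CD86 and TLR2.CD86 the dimmer probe stayed below 0 in the fit with the slide. Its values there were -0.09, -0.15 and -0.12 (adjusted p = 0.474, 0.167 and 0.266), opposite in sign to the called brighter probe.

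Slc38a1 had a signal of 5.79 on both unstimulated arrays, 5.48 and 5.22 with anti-CD40 and 5.30 and 5.34 in TLR2.CD40. It was 5.55 and 5.32 with Pam2CSK4, 5.77 and 5.71 with anti-CD86, and 5.64 and 5.42 in TLR2.CD86, so that every stimulated array lay below the unstimulated arrays. The log2 fold changes of -0.44 with anti-CD40 and -0.47 in TLR2.CD40 did not pass (adjusted p = 0.0640 and 0.0516) and were called with the slide in the fit (-0.34, adjusted p = 0.00774, and -0.47, adjusted p = 0.00131). The difference in TLR2.CD40 was called without either anti-CD40 array. Without anti-CD40 replicate 1 the log2 fold change with anti-CD40 was -0.56. The anti-CD40 array left there lay on slide 2 and both unstimulated arrays on slide 1, so that this value cannot be told apart from the slide. The dimmer probe of Slc38a1 had values of -0.16 and -0.08 (adjusted p = 0.485 and 0.767), which were not called in either fit.

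Genes that work beside these carriers were taken as lists by function. Of all probes, 3.38% were called higher and 7.28% lower in TLR2.CD86, 6.09% and 10.7% with anti-CD40, and 8.46% and 9.65% in TLR2.CD40, and the counts below are set beside these shares. Of 14 other carriers of glucose and hexoses, 5 were tested, and with TLR2.CD86, anti-CD40 and TLR2.CD40 there were 1, 2 and 1 called, all lower. Slc37a4, the glucose 6-phosphate carrier of the endoplasmic reticulum, had signals of 1.77 and 1.83 on the unstimulated arrays and 1.09 and 1.13 in TLR2.CD40, and its log2 fold change there was -0.69 ± 0.11 (adjusted p = 0.00502), beside -0.45 in TLR2.CD86 (adjusted p = 0.0430) and -0.47 with anti-CD40 (adjusted p = 0.0277). The median log2 fold change of the 5 genes was -0.34 in TLR2.CD40, against 0.01 over all probes. Of 48 other amino acid carriers, 24 were tested, and 1 fell with anti-CD86, 1 rose and 2 fell in TLR2.CD86, 2 and 3 with anti-CD40, and 2 and 5 in TLR2.CD40.

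Slc38a5 (SNAT5, a carrier of glutamine) had signals of 2.21 and 2.31 on the unstimulated arrays, 1.12 and 1.39 in TLR2.CD86 and 1.63 and 1.72 in TLR2.CD40. It fell by 1.01 ± 0.16 in TLR2.CD86 (adjusted p = 0.0139) and by 0.59 ± 0.16 in TLR2.CD40 (adjusted p = 0.0341), and by 0.90 with anti-CD86 (adjusted p = 0.0379) and 0.77 with anti-CD40 (adjusted p = 0.0174). Slc1a2, a glutamate carrier, is counted among the genes called higher in TLR2.CD86, where it was the only one, and in TLR2.CD40. Its probe was not well above background on either unstimulated array and passed the filter through the groups where it was high. Its part in these counts is therefore no test of a rise. Its signals there were at least 1.54-fold (TLR2.CD86) and 1.99-fold (TLR2.CD40) above the lowest intensity well above background on the unstimulated arrays, given as a description. Its 3 other probes were not tested. Slc43a2, counted among the genes called lower in TLR2.CD40, was well above background on only 1 of the 2 unstimulated arrays and on neither TLR2.CD40 array, so that the size and direction of its difference are not given.

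Of 16 genes that act on the trafficking of carriers or on the uptake of glucose, all were tested. In TLR2.CD86 1 fell, with anti-CD40 1 rose and 6 fell, and in TLR2.CD40 1 rose and 4 fell, with medians of -0.44 and -0.23. Txnip, which binds glucose carriers and lowers their number at the surface, had signals of 2.99 and 3.05 on the unstimulated arrays, 2.12 and 2.38 with anti-CD40 and 2.14 and 2.18 in TLR2.CD40. It fell by 0.76 ± 0.13 (adjusted p = 0.0103) and 0.85 ± 0.13 (adjusted p = 0.00417), and its other probe had values of -0.46 and -0.39 and did not pass (adjusted p = 0.109 and 0.161). Arrdc3, of the same arrestin family, fell by 0.66 ± 0.13 and 0.82 ± 0.13 (adjusted p = 0.0164 and 0.00489). Pik3ip1, an inhibitor of PI3 kinase, fell by 0.59 ± 0.14 with anti-CD40 (adjusted p = 0.0298) and by 1.47 ± 0.14 in TLR2.CD40 (adjusted p = 0.000670) and had a value of -0.01 in TLR2.CD86 (adjusted p = 0.980).

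The response to scarce amino acids is carried by the factor ATF4 and its targets, of which 19 of 22 listed genes were tested. With anti-CD86 1 fell, in TLR2.CD86 3 fell, with anti-CD40 5 fell, and in TLR2.CD40 3 rose and 3 fell. Asns, asparagine synthetase, had signals of 3.01 and 3.08 on the unstimulated arrays, 1.98 and 2.21 in TLR2.CD86 and 2.47 and 2.50 in TLR2.CD40, and fell by 0.95 ± 0.14 (adjusted p = 0.0135) and 0.55 ± 0.14 (adjusted p = 0.0334). It also fell by 0.85 with anti-CD86 (adjusted p = 0.0375) and by 0.67 with anti-CD40 (adjusted p = 0.0213). Ddit4, which restrains mTORC1, fell by 0.87 ± 0.17 in TLR2.CD86 (adjusted p = 0.0233) and rose by 0.91 ± 0.17 in TLR2.CD40 (adjusted p = 0.00893). Shmt2, the serine hydroxymethyltransferase of mitochondria, rose by 1.12 ± 0.21 in TLR2.CD40 (adjusted p = 0.00893), and its other probe by 1.17 (adjusted p = 0.0108). With anti-CD40 its brightest probe had 0.66 and was not called (adjusted p = 0.0636), whereas the other was called at 1.00 (adjusted p = 0.0244).

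mTORC1 is the kinase complex that senses amino acids at the lysosome, and 22 of 33 listed genes of this pathway were tested. With anti-CD86 1 rose, in TLR2.CD86 1 rose and 3 fell, with anti-CD40 1 rose and 5 fell, and in TLR2.CD40 1 rose and 3 fell. The kinase gene Mtor had signals of -1.43 and -1.36 on the unstimulated arrays, -0.70 and -0.64 in TLR2.CD86 and -0.41 and -0.32 in TLR2.CD40, and rose by 0.72 ± 0.14 (adjusted p = 0.0239) and 1.03 ± 0.14 (adjusted p = 0.00269). It also rose by 0.75 with anti-CD86 (adjusted p = 0.0445) and by 0.90 with anti-CD40 (adjusted p = 0.00790). Sesn1, a leucine sensor of the sestrin family, fell by 1.05 ± 0.19 with anti-CD40 (adjusted p = 0.0113) and by 0.96 ± 0.19 in TLR2.CD40 (adjusted p = 0.0104). Its other 2 probes fell by 0.97 and 1.04 in TLR2.CD40 (adjusted p = 0.00658 and 0.00960). With anti-CD40 they had -0.92 (adjusted p = 0.01265) and -0.60, of which the latter was not called (adjusted p = 0.0717). Fnip2, a partner of folliculin, fell by 1.07 ± 0.16 in TLR2.CD86 (adjusted p = 0.0127). With Pam2CSK4 limma called no gene of these 5 lists without the slide in the fit, and 0, 3, 3, 4 and 3 of the genes of the hexose carrier, amino acid carrier, trafficking, scarcity and mTORC1 lists had an unadjusted p under 0.05. The share of all probes at that unadjusted threshold is not given, so these counts are no results about the lists.

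The fit with the slide called more genes of these lists, as it did over all probes (10.9%, 28.5%, 35.1%, 37.4% and 47.5% with Pam2CSK4, anti-CD86, TLR2.CD86, anti-CD40 and TLR2.CD40). In that order it called 1, 2, 2, 3 and 3 of the 5 hexose carriers and 1, 5, 5, 7 and 10 of the 24 amino acid carriers. It called 1, 4, 7, 9 and 9 of the 16 trafficking genes, 4, 8, 8, 12 and 13 of the 19 scarcity genes, and 1, 7, 9, 14 and 11 of the 22 mTORC1 genes. With Pam2CSK4 the genes called were all lower, among them Ddit4 (-0.68, adjusted p = 0.00416) and Slc37a4 (-0.29, adjusted p = 0.0274).

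The genes most like Slc7a5 and its heavy chain Slc3a2 over the 12 arrays were sought among 10356 genes that were well above background and unsaturated on all of them. Those most like Slc7a5 were Pwp1, Bpnt1, Cct6a, Ccdc43 and Zfp46 (Pearson r 0.93 to 0.95). Those most like Slc3a2 were Krba1, Mtmr3, Dpp7, Klc4 and Stard3 (r 0.98 to 0.99). Between Slc7a5 and Slc3a2 r was -0.60. All of these r rest on arrays that share the slides and the scaling, and the slides differ for Slc3a2, so that they are descriptions only.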

How the data were processed

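RNA was labelled with Cy3 and hybridised to 12 custom Agilent mouse arrays (annotated by the authors to mm9). The deposited scanner files, made by the authors with Feature Extraction 10.5.1.1, hold background-subtracted intensity values with no normalization between arrays. A deposited table holds log2 values that equal the log2 intensity minus 1 constant per array, which lay within 0.012 of the log2 75th percentile. It served as an alternative, although its values are nearly those of the main fit. How the authors chose that constant is not given in the sources used here.

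Outlier spots and controls were left out, spots of a probe were averaged, and the 75th percentile over the 61307 probes was subtracted on the log2 scale. A probe was tested where 1 group or more had both of its arrays well above background (31667 probes, of which 68 with a missing value were left out). Groups were taken from the labels. All 12 arrays were fitted together in limma 3.58.1 (R 4.3.3) with empirical Bayes moderation and Benjamini-Hochberg adjustment over 31599 probes, and interactions were contrasts of the same fit. The fit was tested on simulated data with independent noise and no slide effect. For TLR2.CD86 against unstimulated cells it called 129 of 200 changed probes and 4 unchanged ones. The simulation does not cover the slide differences of these arrays. Python 3.11.15 with pandas 2.3.3 was used for tables, and matplotlib 3.10.9 for plots. The number of arrays, 2 in each group, limits the precision. Fold changes lie on the log2 intensity scale, which understates differences of probes near background.

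All 10 members were named. From 5 lists of genes of related function, the 3 genes with the largest change among those called in TLR2.CD86 or TLR2.CD40 were named (1 in the list of hexose carriers, where no other was called in either group), and for Slc7a5 and Slc3a2 the 5 most correlated genes. The members and lists were chosen with earlier results of these data known. Alternative settings were normalization by the median or by quantiles, normexp correction of the background (offset 50), no filter on dim probes, the median over a gene's probes, the deposited log2 values, no moderation, the slide as a term, slide 1 alone, the replicate number as a term, and leaving out each array in turn. Promoter windows came from a RefSeq table of GRCm38.p6, matched by symbol, and no mm9 coordinates were used. The B cell and red cell marker sums were limited to 6 and 4 genes after the results were seen, and some marker results are not reported here.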

Additional observations from a re-analysis of the deposited data

Results flagged for a closer look

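For Slc7a1 the effect of Pam2CSK4 in the presence of anti-CD40 differed from its effect without the antibody. The interaction was 2.66 on the log2 scale (1.757 to 3.314 over the alternatives), with all 12 arrays in the fit and 2 in each group. The effect of Pam2CSK4 on Slc7a1 was 0.46 without an antibody and 3.12 with anti-CD40. The latter is measured from the dim signals with anti-CD40 alone (-2.93 and -2.35). The difference was called by limma (adjusted p = 0.00399) and was called in each fit without 1 array (adjusted p up to 0.0298), but not on slide 1 alone (2.87, adjusted p = 0.0604).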

How the results depend on the processing

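No call of a member turned its sign under any alternative. The deposited log2 values changed no call, but they are the same intensities less a nearly equal constant per array. Their sameness was thus all but fixed in advance and is no check of the calls. Of the 9 genes, these counts were called where an alternative moved the count by over 1.5 times. With median normalization or no filter on dim probes there were 0 with anti-CD86, TLR2.CD86, anti-CD40 and in TLR2.CD86 against anti-CD86, and 1 in TLR2.CD40 against Pam2CSK4 or anti-CD40. In TLR2.CD40 against unstimulated cells there were 1 and 2, and between the combinations the median gave 0 and quantile normalization 5. With the slide as a term there were 2 (Pam2CSK4), 5 (anti-CD86), 5 (TLR2.CD86), 7 (anti-CD40), 1 (TLR2.CD86 against Pam2CSK4), 6 (TLR2.CD40 against Pam2CSK4) and 8 (between the combinations). On slide 1 alone there were 0 with anti-CD86, 0 in TLR2.CD86 against anti-CD86, 1 in TLR2.CD40 against anti-CD40, 6 between the combinations and 0 for the CD40 interaction. Without moderation there were 3 with anti-CD86, 1 in TLR2.CD86 against Pam2CSK4 and 2 for the CD40 interaction. The cause was not tested. Apart from the fit with the slide, the share of all probes called under each of these settings is not given beside the counts. The counts therefore describe the dependence on the settings and are no results about the carrier genes.

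With the replicate block there were 2 with anti-CD86 and 7 with anti-CD40. For this setting and for the fits without 1 array the share of all probes is likewise not given, and the same limit holds. Of 15 pairs of groups, 6 had a correlation of deviations over 0.1 (range of all pairs -0.107 to 0.674). These were the pairs among the 4 groups split between the slides, where a pairing by replicate number cannot be told apart from the slide. The other pairs, each with the unstimulated or the TLR2.CD40 group, had -0.107 to 0.067 and showed no pairing. Leaving out 1 array gave 0 to 1 genes with anti-CD86, 0 to 3 in TLR2.CD86, 0 to 4 with anti-CD40, 1 to 5 in TLR2.CD40, 0 to 1 in TLR2.CD86 against anti-CD86, 1 to 2 and 1 to 1 in TLR2.CD40 against Pam2CSK4 and anti-CD40, and 1 to 4 between the combinations.

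Over all probes, the count called against unstimulated cells was 42 with Pam2CSK4 (0 to 3449 over the alternatives), 654 with anti-CD86 (0 to 8995), 3366 in TLR2.CD86 (26 to 11092), 5307 with anti-CD40 (349 to 11808) and 5721 in TLR2.CD40 (463 to 15003). It was 20 in TLR2.CD86 against Pam2CSK4 (0 to 3492), 71 against anti-CD86 (1 to 2459), 3101 in TLR2.CD40 against Pam2CSK4 (237 to 9986), 913 against anti-CD40 (292 to 4839), 3856 between the combinations (274 to 10923), and 6 (0 to 72) and 363 (21 to 2703) for the CD86 and CD40 interactions. The highest counts came with the slide as a term. Slc1a4, near background, was not tested.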
